A study of Homo sapiens with 6 samples.

Results

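The genes that encode SR proteins, heterogeneous nuclear ribonucleoproteins (hnRNPs) and core spliceosome components were examined for R-loops in HEK293T cells. The genes were chosen by name: 13 SR protein genes, 17 hnRNP genes and 12 spliceosome genes, 42 of the 20176 protein-coding gene records of the annotation, and all 42 names were found. A peak was assigned to a gene where it overlapped the gene record or 2 kb on either side of it. HEK293T is a human embryonic kidney cell line, labelled here as wild type. Cells were left untreated or were given 10 μM N2-heptynyl-dG, a deoxyguanosine with an alkynyl group on its exocyclic nitrogen, in the medium for 3 h. All cells then received 5 mM N3-kethoxal for 10 min, a reagent that labels unpaired guanines, and strand-specific kethoxal-assisted sequencing (spKAS-seq) enriches the labelled DNA with its strand known. The labels give 2 untreated samples, 2 N2-heptynyl-dG-treated samples and 2 inputs, and the comparison used here rests on 1 list of R-loop peaks per condition.

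An R-loop forms when RNA pairs with its DNA template and leaves the other DNA strand unpaired, most often at transcribed genes near their starts and ends. SR proteins bind exonic enhancers in pre-mRNA through RNA recognition motifs and recruit the splicing machinery through domains rich in arginine and serine. The hnRNPs coat nascent RNA, and many of them oppose SR proteins at splice sites. The spliceosome components examined here belong mainly to the particles that recognise the 5′ splice site, the branch point and the polypyrimidine tract. Many of these proteins regulate the splicing of their own transcripts. Human promoters are often transcribed in both directions, and transcription commonly runs on past the polyadenylation site.

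Stretches of the peaks are shown first, to give the sequence that lies under them. Each is 60 bases of the GRCh37 (hg19) genome, read 5′ to 3′ on the strand of the peak, and runs of at least 3 guanines are in capitals. The first 3 come from the widest peak of each class of gene, and the stretch is the one with the largest excess of G over C that touches no annotated untranslated region. The TRA2B stretch (chr3:185629062-185629121, minus strand) lies 3254 bp beyond the transcript end, the HNRNPDL stretch (chr4:83343037-83343096, minus strand) 655 bp beyond it and the SF3B3 stretch (chr16:70612146-70612205, plus strand) 605 bp beyond it.
TRA2B, downstream: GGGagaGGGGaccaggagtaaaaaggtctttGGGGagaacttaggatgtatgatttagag
HNRNPDL, downstream: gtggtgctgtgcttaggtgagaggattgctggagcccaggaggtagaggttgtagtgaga
SF3B3, downstream: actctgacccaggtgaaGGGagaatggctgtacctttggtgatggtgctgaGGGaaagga

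The next sequences come from the peaks with the highest GC skew, (G − C)/(G + C) on the peak strand, among those found only in the treated list and only in the untreated list. They lie in intron 1 of HNRNPL (chr19:39340094-39340153, minus strand) and at -75 bp from the start of HNRNPAB, counted as negative upstream (chr5:177631429-177631488, plus strand).
HNRNPL, treated only: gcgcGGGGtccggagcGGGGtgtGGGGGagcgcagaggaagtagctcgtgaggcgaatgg
HNRNPAB, untreated only: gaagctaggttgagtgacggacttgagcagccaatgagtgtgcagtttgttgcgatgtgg

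The last set, chosen after the peaks had been seen, comes from starts where a peak on the gene strand directly abutted a peak on the opposite strand in both lists. At SRSF1 the stretches are at chr17:56084738-56084797 (minus strand, the strand of the gene) and chr17:56085088-56085147 (plus strand). At SRSF6 they are at chr20:42087190-42087249 (plus strand, the strand of the gene, in an intron) and chr20:42086196-42086255 (minus strand).
SRSF1, gene strand: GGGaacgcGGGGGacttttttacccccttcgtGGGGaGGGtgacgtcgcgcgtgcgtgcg
SRSF1, opposite strand: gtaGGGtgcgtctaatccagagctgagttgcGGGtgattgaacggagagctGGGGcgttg
SRSF6, gene strand: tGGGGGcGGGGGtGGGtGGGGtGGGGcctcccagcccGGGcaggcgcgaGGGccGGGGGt
SRSF6, opposite strand: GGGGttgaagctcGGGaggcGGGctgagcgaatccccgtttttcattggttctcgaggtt

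The lists gave only the coordinates and strand of every peak, and held 10231 untreated and 11085 treated peaks. They gave no height and no depth, so the depth behind a peak is unknown, and with 1 list per condition there was no replicate spread and no test of a difference between the conditions. Whether a peak missing from a list fell just short of the authors' threshold is unknown here. The 95% Wilson intervals below cover counting error over genes or peaks only, which are not replicates of a condition. The sources used here do not say which DNA strand the strand column names, and "gene strand" below means that its sign equals that of the gene.

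R-loop peaks lay at nearly all of these genes, which were chosen with earlier results of these data known. In the untreated list 38 of the 42 genes had a peak (90.5%, interval 77.9 to 96.2), against 41.7% of all protein-coding genes. In the treated list 37 had a peak (88.1%, interval 75.0 to 94.8), against 43.8% of all protein-coding genes. The 34 genes with a peak in both lists made up 81.0% (interval 66.7 to 90.0), against 36.3%. The median record length of these genes was 21307 bp, against 27194 bp over all protein-coding genes. All protein-coding genes were counted here without regard to expression. A part of gene length or expression in these shares was not tested. SRSF4 alone had no peak in either list. SRSF8, SRSF10, HNRNPAB and SNRNP200 had peaks only in the untreated list, and HNRNPA0, HNRNPR and SF3A1 only in the treated list. Genes of both kinds were also found outside the 42. Of all 20176 protein-coding genes, 8411 had an untreated peak, 8837 a treated peak and 7318 both. SRSF8 is a close relative of SRSF2 and its reads may be shared with other copies.

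**Figure D1:**
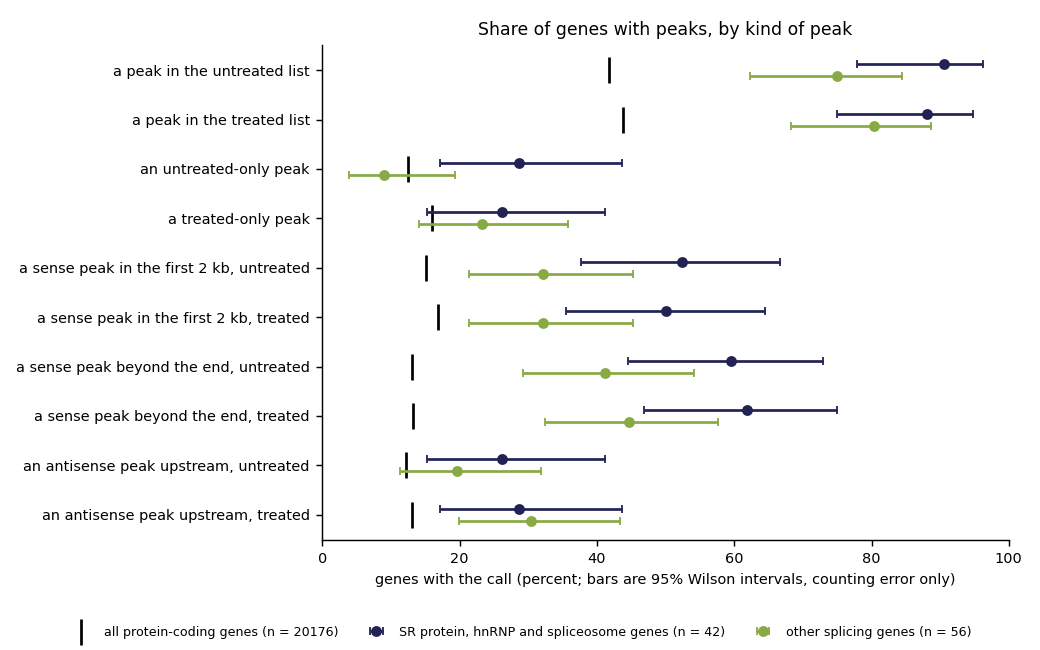
Share of genes (percent) with each kind of peak, for the 42 SR protein, hnRNP and spliceosome genes, 56 other splicing genes and all 20176 protein-coding genes (black ticks). Points are shares and bars are 95% Wilson intervals for counting error. Sense means the gene strand and antisense the strand opposite to it. The share of the 42 genes with a gene-strand peak beyond the transcript end was 59.5% in the untreated list and 61.9% in the treated list, against 13.1% and 13.2% of all protein-coding genes.

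In all, 73 untreated and 69 treated peaks lay at the 42 genes, and 25 and 24 of the genes had at least 2 peaks (14.0% and 15.5% of all protein-coding genes). Peaks were grouped by their midpoint relative to the Ensembl canonical transcript, a grouping chosen after the peaks had been seen. Of the untreated peaks 12 lay upstream of the start, 23 in the first 2 kb, 9 in the rest of the transcript and 29 beyond its end. Of the treated peaks 14, 21, 5 and 29 lay in these positions. The share beyond the end was 39.7% untreated (interval 29.3 to 51.2) and 42% treated (interval 31.1 to 53.8), against 26.0% and 24.7% over all protein-coding genes. The upstream share was 16.4% (interval 9.66 to 26.6) and 20.3% (interval 12.5 to 31.2), against 31.1% in each list over all protein-coding genes, a value that the treated interval includes. The intervals of the first 2 kb included the values over all protein-coding genes, 27.5% and 28.5%, as did those of the rest of the transcript, 15.4% and 15.7%. Against every annotated transcript, 46.6% of untreated and 46.4% of treated peaks had their midpoint in a promoter, from 1000 bp upstream of a start to 100 bp downstream (42.6% and 44.2% over all protein-coding genes), and against the canonical transcript alone 20.5% and 24.6%. The peaks were on the gene strand in 61 of 73 untreated (83.6%, interval 73.4 to 90.3) and 56 of 69 treated cases (81.2%, interval 70.4 to 88.6), against 69.4% and 68.7% over all protein-coding genes.

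Beyond the end, 29 of 29 untreated peaks and 29 of 29 treated peaks were on the gene strand (interval 88.3 to 100% in each). Over all protein-coding genes the share on the gene strand there was 87.7% and 87.3%. The midpoints lay a median of 1292 bp past the end in the untreated list and 1406 bp in the treated list. Gene-strand peaks beyond the end were found at 25 genes in the untreated list (59.5%, interval 44.5 to 73.0) and 26 in the treated list (61.9%, interval 46.8 to 75.0), against 13.1% and 13.2% of all protein-coding genes. Of these peaks 14 untreated and 13 treated ones overlapped the record of another protein-coding gene, 6 and 5 of them on the same strand, so the transcript under those peaks cannot be told from position alone. With such peaks left out, 14 genes (33.3%, interval 21.0 to 48.4) and 16 genes (38.1%, interval 25.0 to 53.2) had one, against 8.61% and 8.36% of all protein-coding genes under the same restriction. With the gene record alone, which leaves out most of the sequence past the end, 7 and 8 genes had one. Some of these peaks, such as those of HNRNPA2B1, lay past the canonical end but within the gene record. With the outer ends of the record in place of the canonical transcript, 24 untreated and 22 treated genes had one. The peaks with a same-strand protein-coding neighbour were those of SF3A2 over AMH, PRPF8 over RILP, U2AF2 over EPN1, and SRSF6 and HNRNPL over protein-coding records without a symbol. The downstream peak of HNRNPA1 overlapped a same-strand record that is not protein-coding, in both lists. In each list 3 peaks beyond the end had their midpoint in a promoter of another gene on the same strand. These were the PRPF8 peak at RILP, the U2AF2 peak at EPN1 and the HNRNPUL1 peak at CCDC97.

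In the first 2 kb, 22 of 23 untreated and 21 of 21 treated peaks were on the gene strand, close to the 94.7% and 94.1% over all protein-coding genes. They belonged to 22 genes (52.4%, interval 37.7 to 66.6) and 21 genes (50%, interval 35.5 to 64.5), against 15.1% and 16.8% of all protein-coding genes. Of these peaks 17 of 22 untreated and 12 of 21 treated ones covered the canonical start itself. With peaks under the median width left out, the treated count was 13 genes. Genes with gene-strand peaks at both ends numbered 15 untreated (35.7%, interval 23 to 50.8) and 14 treated (33.3%, interval 21.0 to 48.4), against 3.73% and 4.09% of all protein-coding genes.

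Upstream of the start most peaks, 11 of 12 untreated and 13 of 14 treated ones, were on the strand opposite to the gene. The share on the gene strand was 8.33% (interval 1.49 to 35.4) and 7.14% (interval 1.27 to 31.5), against 31.9% and 31.7% over all protein-coding genes, so the untreated interval includes the value of all genes and the treated one ends just below it. Such peaks were found at 11 genes (26.2%, interval 15.3 to 41.1) and 12 genes (28.6%, interval 17.2 to 43.6), against 12.2% and 13.0% of all protein-coding genes. These counts depended on the processing, with 7 and 5 genes for the gene record without its 2 kb, 4 and 5 without peaks under the median width, and 5 untreated genes when the outer ends of the record replaced the canonical transcript. At HNRNPD the opposite-strand peak overlapped the annotated divergent transcript HNRNPD-DT, and at HNRNPH3 it overlapped the neighbouring gene PBLD. The upstream peak of SRSF9 that both lists held had its midpoint at -26620 bp from the canonical start of SRSF9 in the untreated list, at the DYNLL1 gene, and was counted only because the record of SRSF9 extends that far.

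**Figure D2:**
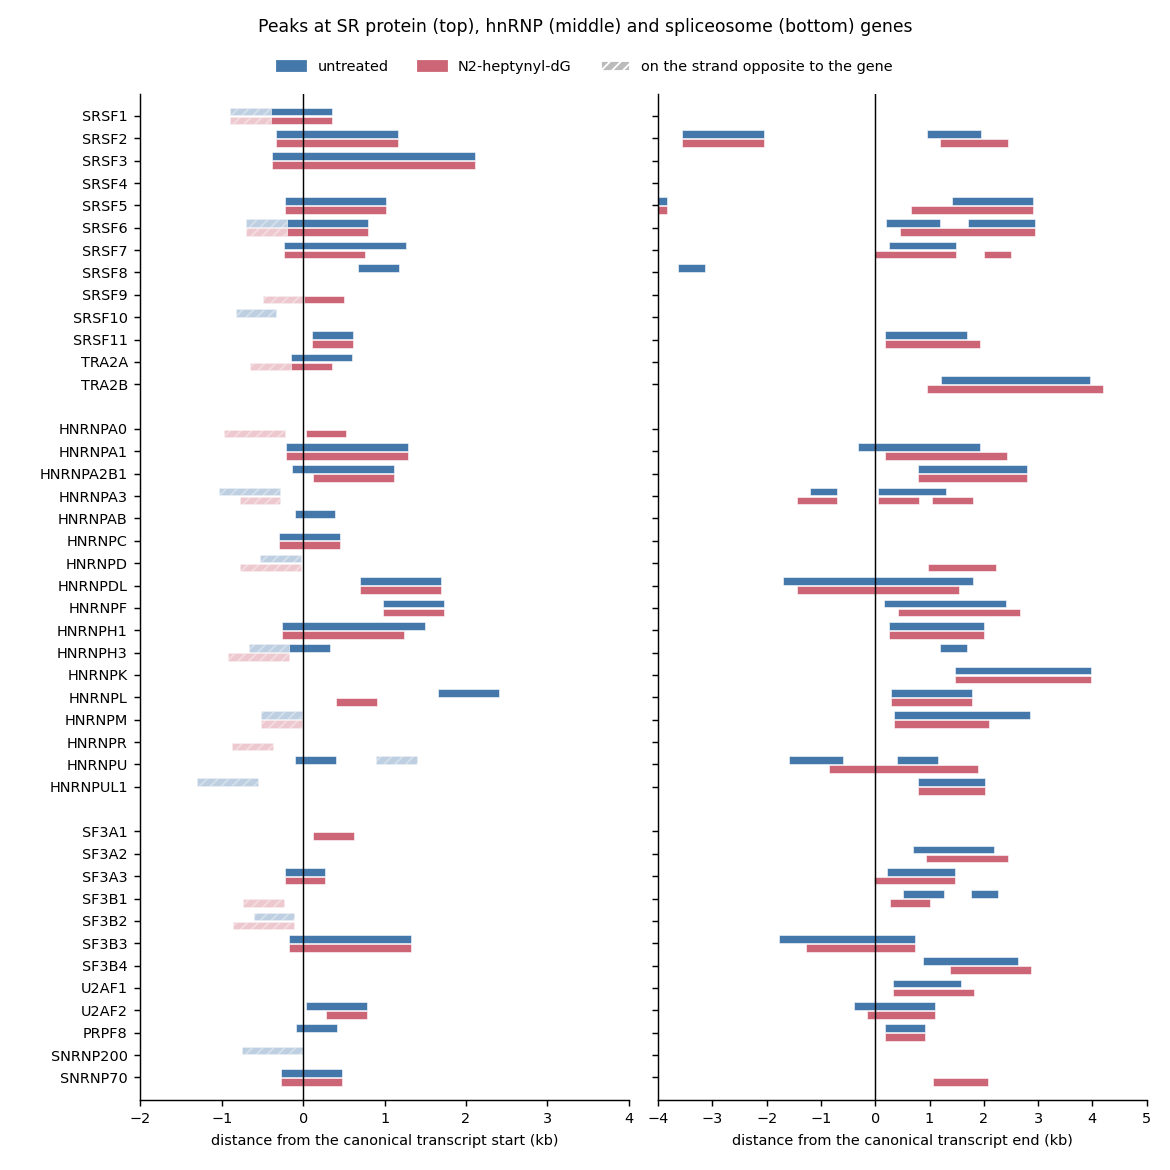
Peaks at each of the 42 genes, drawn by distance in kb from the canonical transcript start (left) and end (right), with untreated peaks above treated ones and hatching for peaks on the strand opposite to the gene. Peaks outside the drawn ranges, such as the SRSF9 peak at -26620 bp, are not shown. All 29 peaks beyond the end in each list were on the gene strand, and most upstream peaks were hatched.

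Among the SR protein genes, 12 of 13 had an untreated peak and 10 of 13 a treated peak, with 20 and 21 peaks in all. Of these 18 untreated peaks and 17 treated peaks were shared, that is, had 1 bp or more in common with a peak of the list of the other condition. SRSF6, a splicing regulator of the SR family, had peaks at both ends. Its start carried an opposite-strand peak of 500 bp (chr20:42085835-42086334) and an abutting gene-strand peak of 1000 bp (chr20:42086335-42087334), the same in both lists. Past its end, untreated peaks of 1000 bp (chr20:42093085-42094084) and 1250 bp (chr20:42094585-42095834) corresponded to a single treated peak of 2500 bp (chr20:42093335-42095834). SRSF5 had an identical start peak of 1250 bp (chr14:70233632-70234881) in both lists, and its downstream peak was 1500 bp wide untreated (chr14:70240132-70241631) and 2250 bp treated (chr14:70239382-70241631). TRA2B, which binds purine-rich exonic enhancers, had no peak at its start and 1 broad peak past its end, 2750 bp untreated (chr3:185628393-185631142) and 3250 bp treated (chr3:185628143-185631392).

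SRSF3, the smallest SR protein, had a single peak of 2500 bp over its start with the same borders in both lists, with 1992 bp of it in intron 1. SRSF1, which promotes exon inclusion, had an abutting pair at its start, a gene-strand peak of 750 bp and an opposite-strand peak of 500 bp, with the same borders in both lists. The gene-strand peak also overlapped a protein-coding record without a symbol on the same strand. SRSF2, which also binds exonic enhancers, had an identical start peak of 1500 bp in both lists and a downstream peak of 1000 bp untreated and 1250 bp treated. SRSF7 had a start peak of 1500 bp untreated and 1000 bp treated, a downstream peak of 1250 and 1500 bp, and a further treated-only peak of 500 bp (chr2:38968245-38968744). SRSF11 had an identical start peak of 500 bp and a downstream peak of 1500 bp untreated and 1750 bp treated.

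The remaining SR protein peaks were mostly 500 bp wide and found in 1 list only. TRA2A had a start peak in both lists, 750 bp untreated and 500 bp treated, and an abutting opposite-strand peak in the treated list only (chr7:23571751-23572250). SRSF9 had an abutting pair of 500-bp peaks at its start in the treated list only, on the gene strand (chr12:120907046-120907545) and on the opposite strand (chr12:120907546-120908045). The opposite-strand peak also overlapped the record of DYNLL1, which has the strand of that peak. SRSF8 had an untreated-only peak within its transcript (chr11:94800756-94801255), and SRSF10, a splicing repressor, an untreated-only opposite-strand peak upstream (chr1:24307147-24307646). Summed over the SR protein genes, peaks covered 22750 bp untreated and 25500 bp treated, 12.1% more. Of the 13 genes 8 had more covered length in the treated list, 2 less and 3 the same. SRSF9 alone held 750 bp untreated and 2000 bp treated, which include the shared peak at DYNLL1 described above. The treated list also held more peaks in all, 11085 against 10231, and covered length was not summed over all protein-coding genes.

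Among the hnRNP genes, 15 of 17 had an untreated peak and 16 of 17 a treated peak, with 36 and 32 peaks of which 26 and 26 were shared. HNRNPA2B1, which binds UAG-containing RNA and packages nascent transcripts, had a covered length of 4500 bp untreated, equal to that of HNRNPDL, and 5500 bp treated, the largest of the 42 genes in that list. Its peaks were a start peak of 1250 bp untreated (chr7:26239251-26240500) and 1000 bp treated (chr7:26239251-26240250), an identical downstream peak of 2000 bp (chr7:26226751-26228750), and a more distant one of 1250 and 1500 bp near the end of a longer transcript (chr7:26222251-26223500 in the untreated list). A treated-only peak of 1000 bp lay in its intron 7 (chr7:26233751-26234750). HNRNPDL, a relative of HNRNPD, had the widest untreated peak of all the genes, 3500 bp across its last exon and the sequence past the end (chr4:83341921-83345420), against 3000 bp treated (chr4:83342171-83345170), and an identical peak of 1000 bp over its first exon and intron (chr4:83349921-83350920). HNRNPF, which binds G tracts, had 3 peaks in each list, of which the downstream one was 2250 bp wide in both, shifted by 250 bp (chr10:43878649-43880898 untreated and chr10:43878399-43880648 treated).

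HNRNPK, a poly(C)-binding protein, had a single downstream peak of 2500 bp with identical borders in both lists and no peak at its start. HNRNPA1, which represses exon inclusion, had an identical start peak of 1500 bp and a downstream peak of 2250 bp in both lists. HNRNPH1, a G-tract binder, had an identical downstream peak of 1750 bp and a start peak of 1750 bp untreated and 1500 bp treated. HNRNPC, which binds uridine tracts, had an identical start peak of 750 bp and a peak within the transcript of 1250 bp untreated and 1000 bp treated. HNRNPM had a downstream peak of 2500 bp untreated and 1750 bp treated. HNRNPA3 had a downstream peak of 1250 bp untreated that corresponded to 2 treated peaks of 750 bp each, with the highest GC skew of the hnRNP genes, 0.27 untreated and 0.29 in the nearer treated peak.

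Peaks found in 1 list only lay at 9 of the hnRNP genes. A treated-only peak was found at 5 of the 17 (29.4%, interval 13.3 to 53.1), against 15.9% of all protein-coding genes. An untreated-only peak was found at 6 (35.3%, interval 17.3 to 58.7), against 12.4%. The share with either kind was not computed over all protein-coding genes. HNRNPU, the scaffold attachment factor, had 3 untreated-only peaks of 500 bp, on the gene strand at its start (chr1:245027448-245027947), on the opposite strand 1147 bp into the gene (chr1:245026448-245026947), and 11401 bp beyond the canonical end, where it overlapped COX20 (chr1:245001948-245002447). At its end, untreated peaks of 750 and 1000 bp corresponded to 1 treated peak of 2750 bp (chr1:245011698-245014447). HNRNPL, which binds CA repeats, had untreated-only peaks of 500 bp in intron 6 (chr19:39332223-39332722) and 750 bp in intron 1 (chr19:39338223-39338972), and a treated-only peak of 500 bp elsewhere in intron 1 (chr19:39339723-39340222), beside an identical downstream peak of 1500 bp. HNRNPD, known for binding AU-rich elements, had an untreated-only peak of 500 bp in intron 2 (chr4:83287421-83287920) and a treated-only downstream peak of 1250 bp (chr4:83271421-83272670). HNRNPH3 had untreated-only peaks of 500 bp at its start (chr10:70091649-70092148) and past its end (chr10:70104149-70104648).

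HNRNPAB had 1 untreated-only peak at its start (chr5:177631428-177631927), and HNRNPUL1 an untreated-only opposite-strand peak of 750 bp upstream (chr19:41768973-41769722). HNRNPA0 had treated-only peaks on the gene strand (chr5:137089522-137090021) and on the opposite strand (chr5:137090272-137091021), and HNRNPR a treated-only opposite-strand peak (chr1:23671147-23671646). Summed over the hnRNP genes, peaks covered 41250 bp untreated and 40500 bp treated, a change of -1.82%. Of the 17 genes 6 had more covered length in the treated list, 9 less and 2 the same.

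Among the spliceosome genes, 11 of 12 had a peak in each list, with 17 and 16 peaks of which 13 and 13 were shared. SF3B3, a subunit of the SF3B complex that contacts the branch point region, had an identical start peak of 1500 bp (chr16:70557548-70559047) and a peak over its last exon and end of 2500 bp untreated (chr16:70609798-70612297) and 2000 bp treated (chr16:70610298-70612297). U2AF2, which binds the polypyrimidine tract, had a start peak of 750 bp untreated (chr19:56166432-56167181) and 500 bp treated (chr19:56166682-56167181) and an end peak of 1500 bp (chr19:56185682-56187181) and 1250 bp (chr19:56185932-56187181). SF3A3, a subunit of the SF3A complex, had an identical start peak of 500 bp (chr1:38455424-38455923) and a downstream peak of 1250 bp untreated (chr1:38421174-38422423) and 1500 bp treated (chr1:38421174-38422673). U2AF1, which recognises the AG at the 3′ splice site, SF3B4 and SF3A2 each had only a downstream peak, shared by both lists, and SF3B2 only an opposite-strand peak upstream, 500 bp untreated and 750 bp treated.

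Peaks found in 1 list only lay at 5 of the spliceosome genes. A treated-only peak was found at 3 of the 12 (25.0%, interval 8.89 to 53.2), against 15.9% of all protein-coding genes. An untreated-only peak was found at 4 (33.3%, interval 13.8 to 60.9), against 12.4%. SF3B1, a branch point factor recurrently mutated in myelodysplastic syndromes, had a further downstream peak in the untreated list (chr2:198252242-198252741) and an opposite-strand upstream peak in the treated list (chr2:198299992-198300491), beside a shared downstream peak of 750 bp. PRPF8, the core scaffold of the spliceosome, had an untreated-only start peak (chr17:1587751-1588250) beside an identical downstream peak of 750 bp. SNRNP70, the U1-70K protein, had an untreated-only peak in intron 4 (chr19:49597682-49598431) and a treated-only downstream peak of 1000 bp (chr19:49612932-49613931), beside an identical start peak of 750 bp. SNRNP200, the helicase that unwinds the U4 and U6 RNAs, had 1 untreated-only opposite-strand peak (chr2:96971281-96972030), and SF3A1 1 treated-only peak (chr22:30752261-30752760). The spliceosome genes were covered over 17750 bp untreated and 16750 bp treated, a change of -5.63%. Of these genes 5 had more in the treated list, 5 less and 2 the same.

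Sharing between the lists was then compared with that of other genes. Of the untreated peaks at the 42 genes 57 of 73 were shared (78.1%, interval 67.3 to 86.0), against 76.9% of peaks at all protein-coding genes. Of the treated peaks 56 of 69 were shared (81.2%, interval 70.4 to 88.6), against 71.5%. All the shared peaks had a partner on the same strand. Beyond the end 26 of 29 peaks were shared in each list (89.7%, interval 73.6 to 96.4), against 79.6% and 78.2% over all protein-coding genes. In the first 2 kb 17 of 23 untreated (73.9%, interval 53.5 to 87.5) and 17 of 21 treated peaks (81.0%, interval 60 to 92.3) were shared, against 79.0% and 71.2% over all protein-coding genes, values that these intervals include. The intervals at the beyond-the-end and first-2-kb positions overlapped.

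A treated-only peak was found at 11 of the 42 genes (26.2%, interval 15.3 to 41.1), against 15.9% of all protein-coding genes, and an untreated-only peak at 12 (28.6%, interval 17.2 to 43.6), against 12.4%. With the gene record alone, without 2 kb on either side, 5 genes had a treated-only peak and 11 an untreated-only peak. Genes with at least 2 peaks were also more frequent among the 42 than among all protein-coding genes, as given above, and the part of this in both shares was not tested. As a share of peaks, 16 of 73 and 13 of 69 were found in 1 list only, and the intervals of the shared percentages given above include the values over all protein-coding genes. The peaks found in 1 list only were narrow, with a median width of 500 bp in each list, and that width was seen in 12 of the 16 in the untreated list and 9 of the 13 in the treated list, the smallest at these genes. The shared peaks had a median width of 1250 bp in each list. Shared or not, 28.8% of untreated and 24.6% of treated peaks at these genes were 500 bp wide. Over all protein-coding genes 40.7% and 41.9% were, and their widths were not split by sharing. With narrower peaks than the median of each list left out, 7 genes had a treated-only peak and 7 an untreated-only peak.

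The total length under peaks at the 42 genes was 81750 bp untreated and 82750 bp treated, 1.22% more. By gene, 19 had more in the treated list, 16 less and 7 the same. These lengths were not computed for all protein-coding genes. Of 52 shared peaks that matched 1 to 1, 22 had the same borders, 26 the same width, 14 were wider in the treated list and 12 narrower. Most of these differences in width, in both directions, were of 250 bp, a single step of the peak widths in the lists. Wide peaks were frequent at these genes: 12.3% of untreated and 15.9% of treated peaks spanned at least 2000 bp, against 6.66% and 5.82% over all protein-coding genes, with intervals of 6.62 to 21.8 and 9.14 to 26.3. The untreated interval reached the value of all genes and the treated interval did not.

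**Figure D3:**
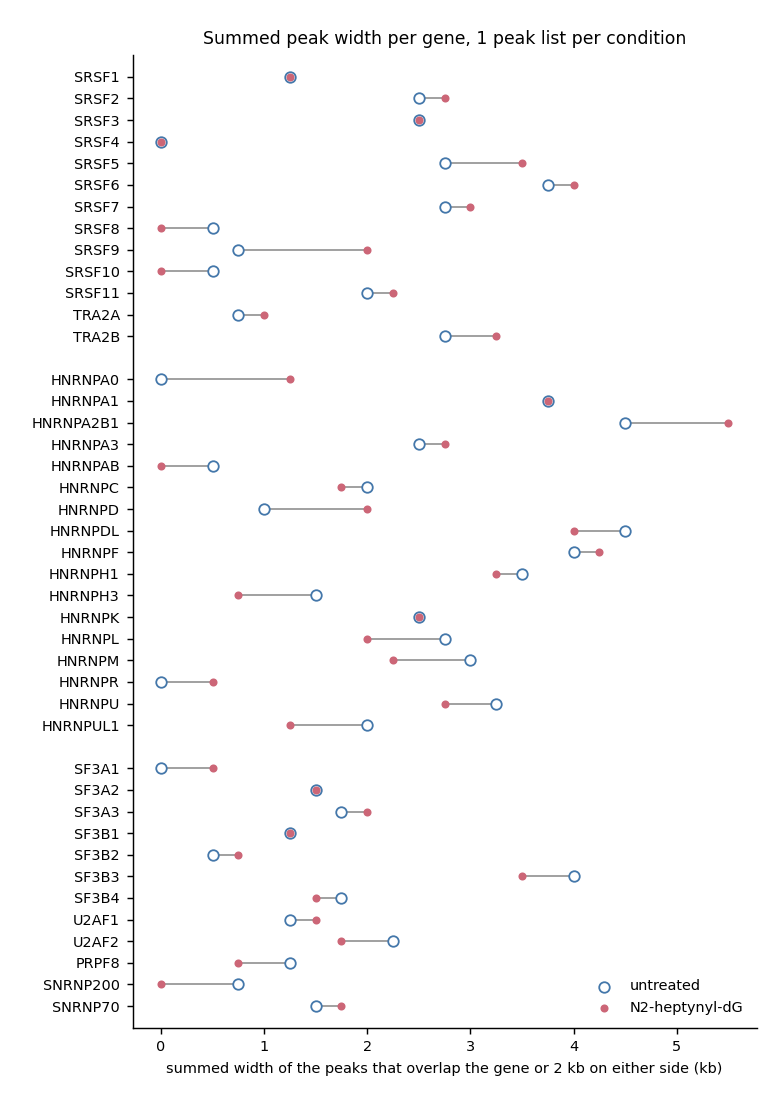
Summed width in kb of the peaks at each of the 42 genes in the untreated list (open circles) and the treated list (filled points), with 1 list per condition and hence no error. Summed widths were higher in the treated list in 19 genes, lower in 16 and equal in 7, and the largest were 4500 bp untreated, at HNRNPA2B1 and HNRNPDL, and 5500 bp treated, at HNRNPA2B1.

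The base composition of the peaks differed by position. Over all positions the median GC content was 51.4% untreated and 52.4% treated, against 57.1% and 58.4% at all protein-coding genes. Gene-strand peaks in the first 2 kb had a median GC content of 61.2% untreated and 61.0% treated (order-statistic intervals 58.1 to 66.2 and 58.0 to 65.0), and those beyond the end 45.1% and 45.6% (43.7 to 49.4 and 43.9 to 49.2). Opposite-strand peaks upstream lay between, at 57.0% and 56.8%. Over all protein-coding genes the corresponding medians were 62.4% and 63.4% in the first 2 kb and 50.9% and 51.8% beyond the end, so the peaks beyond the end of these genes had a lower GC content than usual. The lowest value was that of HNRNPU, 34.7% in an untreated peak at its end.

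GC skew was above 0, that is, G exceeded C on the peak strand, in 16 of 22 untreated and 15 of 21 treated gene-strand peaks of the first 2 kb, against 54.4% and 51.0% over all protein-coding genes, and the intervals of these shares, 51.8 to 86.8% and 50 to 86.2%, include those values. Beyond the end it was above 0 in 20 of 29 peaks (69.0%, interval 50.8 to 82.7), against 51.8%, which the interval includes, and in 19 of 29 (65.5%, interval 47.3 to 80.1), against 46.6%. The largest skew was 0.29 in each list, at the downstream peak of SF3B1 in the untreated list and of HNRNPA3 in the treated list. A quadruplex motif, 4 runs of at least 3 G separated by 1 to 7 bases, was searched on the peak strand in the central 500 bp of each peak. It was present in 8 of 73 untreated and 7 of 69 treated peaks at these genes, against 12.1% and 13.1% of all peaks in the lists. Of these 7 and 6 were gene-strand peaks in the first 2 kb, where 19.4% and 20.7% of such peaks over all protein-coding genes had it, values within the intervals for these genes, 16.4 to 52.7% and 13.8 to 50%. They lay at SRSF2, SRSF5, SRSF7, HNRNPDL, HNRNPH1 and U2AF2 in both lists and at HNRNPH3 in the untreated list. The SRSF6 gene-strand stretch printed above also meets the motif. It was not counted because it lies outside the central 500 bp of its peak.

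**Figure D4:**
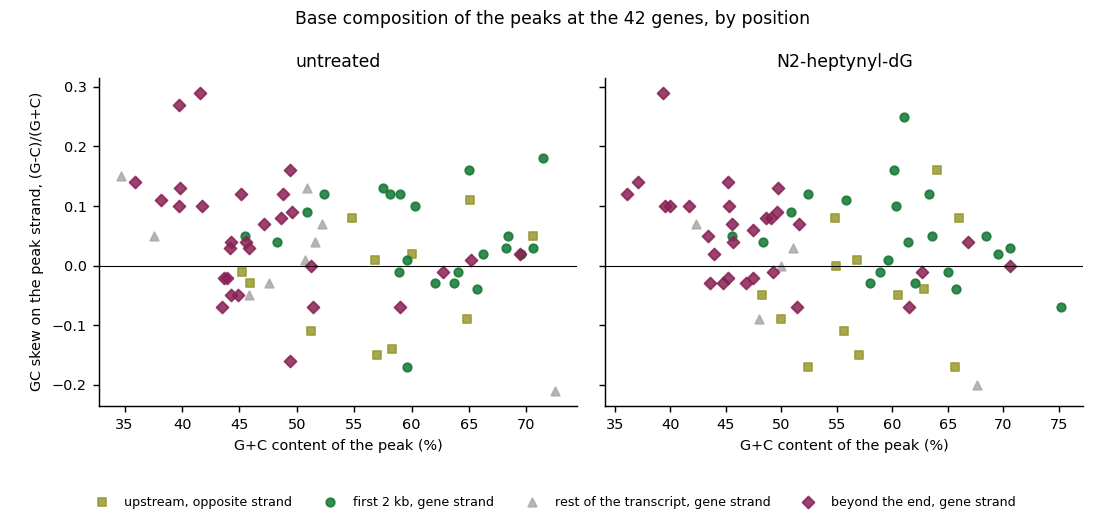
GC content (percent) and GC skew on the peak strand of each peak at the 42 genes, with a marker for its position, in the untreated list (left) and the treated list (right). Gene-strand peaks of the first 2 kb lie around a median GC content of 61.2% and 61.0%, and those beyond the end around 45.1% and 45.6%, in both lists.

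A further 56 splicing genes, among them SR kinases, other hnRNPs and the remaining small nuclear ribonucleoprotein subunits, were counted for comparison. They too were chosen with earlier results of these data known. Of the 56 genes 42 had an untreated peak (75.0%, interval 62.3 to 84.5) and 45 a treated peak (80.4%, interval 68.2 to 88.7). Gene-strand peaks beyond the end were found at 23 untreated (41.1%, interval 29.2 to 54.1) and 25 treated (44.6%, interval 32.4 to 57.6), and gene-strand peaks in the first 2 kb at 18 in each list (32.1%, interval 21.4 to 45.2). These intervals overlapped those of the 42 genes, and the differences were not tested. A treated-only peak was found at 13 of the 56 (23.2%, interval 14.1 to 35.8) and an untreated-only peak at 5 (8.93%, interval 3.87 to 19.3). Both intervals include the values over all protein-coding genes, 15.9% and 12.4%. CDC5L, PHF5A and SNRPA1 had a treated peak and no untreated peak, and none of the 56 had only untreated peaks. By subgroup, genes with a treated-only peak ranged from 1 of 10 SR kinases and SR-related genes (interval 1.79 to 40.4%) to 5 of 8 genes of the U2 particle (interval 30.6 to 86.3%). These are the extremes of several small subgroups, and the differences between them were not tested.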

How the data were processed

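spKAS-seq peaks of untreated and N2-heptynyl-dG-treated HEK293T cells were analysed. Before deposit, the authors ran Trim Galore, mapped to hg19 with Bowtie2 (default setting) and removed duplicates with Picard. They called R-loops from 2 replicates as in an earlier protocol. Tool versions and peak thresholds are not given in the sources used here. The deposited lists hold coordinates and strand, with no score or other unit, and widths are in steps of 250 bp for 99.9% of untreated and 100% of treated peaks. Each list is attached to replicate 1 and was taken as that of its condition. Inputs and signal tracks were not used here.

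Coordinates are 1-based on GRCh37, the same build as hg19, with GENCODE v44 lifted to it. The strand, overlap, window and composition counts were computed in Python 3.11.15 with scipy 1.17.1. The totals of peaks and of shared peaks at these genes were also counted with bedtools 2.31.1, with the same result. On simulated data 0 of 2000 peaks were placed wrongly and 0 of 4000 received a wrong sharing state. Strand, GC content and GC skew had no such check. Composition left out peaks with over 50% undetermined bases. Named genes were all members with a peak found in 1 list only, the 3 of each class with the most covered length, and any without a peak, and others are given by their roles. The members and gene lists were chosen with earlier results of these data known. The grouping by canonical transcript and the abutting pairs were chosen after the peaks had been seen.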

Additional observations from a re-analysis of the deposited data

How the results depend on the processing

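No paired analysis was possible because only 1 list of peaks stands for each condition, and for the same reason no replicate could be left out. Selection by peak score was not run, since the lists hold no score. Of 106 alternative values for 21 results, 84 stayed within 1.5 times the count or within the interval of the share or median. With the gene record alone, without 2 kb on either side, 5 genes had a treated-only peak and 41 treated peaks remained, the promoter share was 61.2% untreated (46.6% with the 2 kb) and 58.5% treated (46.4%), gene-strand peaks beyond the end were found at 7 and 8 genes, and opposite-strand upstream peaks at 7 and 5. With peaks under the median width of their list left out, 7 genes had a treated-only and 7 an untreated-only peak, 86.5% of untreated peaks were shared, 92.3% of untreated and 90.4% of treated peaks were on the gene strand, 34.6% of untreated peaks were in the promoter, 13 genes had a treated gene-strand peak in the first 2 kb, and 4 and 5 genes an opposite-strand upstream peak. With the canonical transcript alone, 20.5% of untreated and 24.6% of treated peaks were in the promoter. Without peaks that overlap another protein-coding gene, 14 and 16 genes had a gene-strand peak beyond the end. With the outer ends of the gene record, 5 genes had an untreated opposite-strand upstream peak. The alternatives for peaks by position were chosen after seeing the data. The cause of each move was not tested.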
